A study of Drosophila melanogaster with 6 samples.

Results

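The transcriptome of wild-type OreR embryos was described from the 3 OreR libraries of a series of 6. OreR is the Oregon-R laboratory strain of Drosophila melanogaster, a usual wild-type reference. The 3 libraries were chosen by their genotype label alone, and no measured value entered the choice. They are biological replicates 1, 2 and 3, made from total RNA of lysed whole embryos laid on apple juice plates with yeast, with no treatment. The other 3 libraries come from caperCC01391 embryos and were not used. The sources used here do not state the age of the embryos, the length of the egg collection or the number and sex of the embryos in a library. RNA was prepared as stranded libraries and sequenced as read pairs on the Illumina platform. All results below are levels and spreads within OreR, so no comparison between groups was tested.

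A fly egg is stocked by the mother with messenger RNAs that set up the body axes, repress and later destroy other messages, and drive the first rapid nuclear divisions. The embryo's own genome then takes over: blastoderm genes subdivide the egg, segment polarity and Hox genes give each segment its pattern and identity, and nerve, muscle, trachea, gut and blood differentiate. Towards the end, the epidermis and trachea secrete chitin and cuticle proteins. Much of this regulation also passes through alternative splicing, in which different exon junctions of a gene are joined.

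The deposited table held whole-number counts for 14737 genes, split into 73704 exonic bins, 54271 annotated splice junctions and 418 unannotated junctions. Gene counts summed to 36299246 in replicate 1, 40241577 in replicate 2 and 34815930 in replicate 3. Levels are given as CPM, counts scaled to a common library total after TMM normalization, whose factors lay between 0.993 and 1.01. A gene was called detected at 1 CPM or more in every library, which 9072 genes reached (61.6%). A further 1861 genes had a count of 0 in all 3 libraries; over the 3 libraries together, a count of 0 allows a level of up to 0.0269 CPM. Current names were found for 14100 gene identifiers, and the 637 others, with 8.14% of the counts, are given by identifier only. Genes of the stage, tissue and pathway lists that could not be matched to the table, at most 5 in a list, are not analysed here, and counts of members below leave them out. No library was a copy of another, since the median chi-square per gene was 3.15 for replicates 1 and 3, the most alike pair. Libraries nevertheless stood apart for whole gene groups before any result is read: 100 genes in replicate 3 and 52 in replicate 2 were 2-fold or more below the mean of the other libraries, and 79 genes in replicate 1 were 2-fold or more above it. These patterns are described below with values per library.

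No single gene or small group of genes took most of the counts. The gene with the largest share held 1.09 ± 0.0195% of the counts (SD, n = 3), the 10 largest held 4.34 ± 0.138%, and the 100 largest held 19.7 ± 0.571%. It took 756 genes in replicate 1, 700 in replicate 2 and 745 in replicate 3 to hold 50% of the counts. Only 114 genes were at 1000 CPM or more in every library, against 2266 at 100 CPM or more and 7087 at 10 CPM or more.

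The 20 genes of highest mean CPM are mostly parts of the protein-making machinery and the cytoskeleton. CPM here is the share of the counts a gene takes, which also grows with the length of its RNA. The first was FBgn0000556, which has no name in the reference used, with 11093, 10779 and 10823 CPM in replicates 1, 2 and 3. The second was eEF2, the factor that moves ribosomes along the message, with 5222, 4919 and 5086 CPM. The third was alphaTub84B, an alpha-tubulin of microtubules, with 4015, 3960 and 3958 CPM. These genes hardly differed between libraries, with coefficients of variation of 1.56%, 2.99% and 0.823%. Act5C, a cytoplasmic actin, had 3548, 3364 and 3551 CPM. RpS3A, a protein of the small ribosomal subunit, had 3320, 3213 and 3372 CPM. FBgn0001219, also without a name, had 3640, 3597 and 3672 CPM. Of the rest of the 20, the ribosomal protein genes RpL10, RpS2, RpL5, RpL7A, RpL8, sta, RpL41 and RpL4 lay between 2508 and 2796 mean CPM. Rack1, a scaffold protein bound to the ribosome, averaged 2434 ± 142 CPM, and eIF4A, the helicase that prepares messages for translation, averaged 2376 ± 44.9 CPM.

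Osi6 and Osi7 were the exception among these steady genes. They belong to the Osiris family of small membrane-associated proteins made by cuticle-secreting epithelia. Osi6 had 2992, 5635 and 3243 CPM in replicates 1, 2 and 3, and Osi7 had 2110, 3924 and 2272 CPM. Replicate 2 lay well above the other two, which were close to each other, and the highest library was 1.88 and 1.86 times the lowest. The lipid carrier gene apolpp was also highest in replicate 2, with 2135, 2906 and 2355 CPM. mt:CoI, the mitochondrial gene for subunit I of cytochrome c oxidase, was highest in replicate 3, with 3179, 2974 and 3571 CPM.

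**Figure D1:**
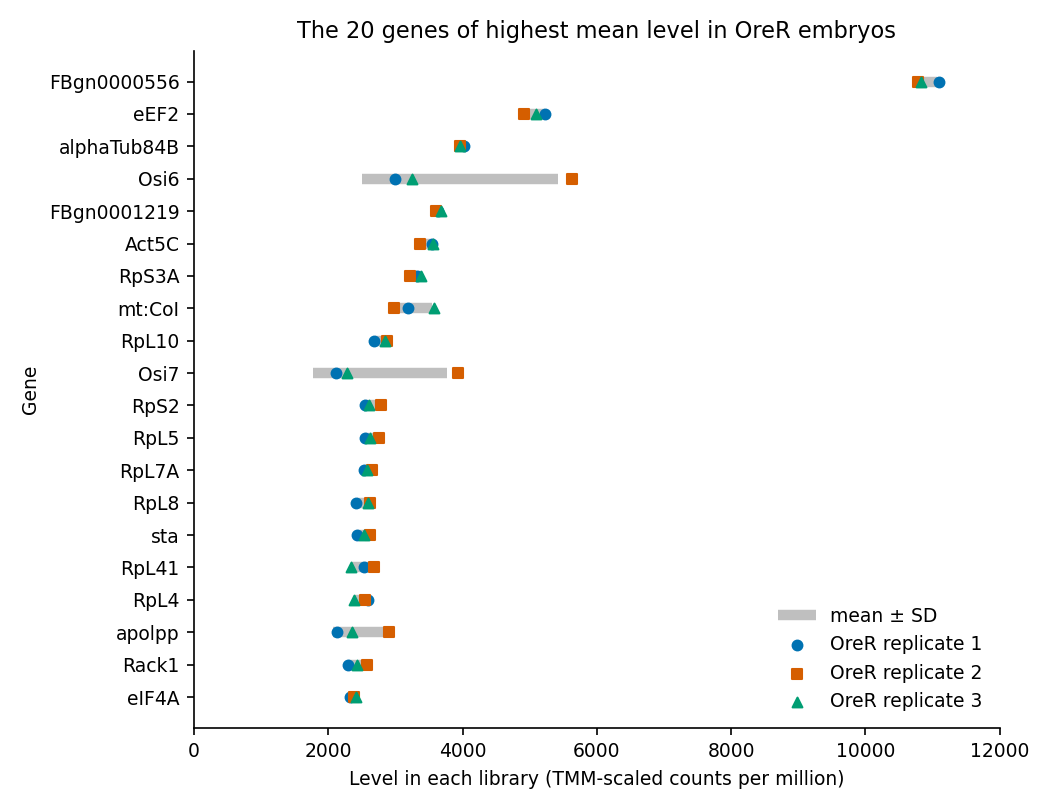
Level of each of the 20 genes of highest mean CPM in each OreR library; the x axis is TMM-scaled CPM, points are the 3 libraries and grey bars span the mean ± SD (n = 3). FBgn0000556 stands alone near 10898 CPM, and replicate 2 stands apart from the other libraries at Osi6 and Osi7.

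Levels of different genes were compared per kilobase of the longest coding sequence, known for 12538 genes with 91.7% of the counts. On that scale the short ribosomal protein genes came first and 232 ± 19.5 genes held 50% of the total. RpL41 was far ahead at 33531 ± 2317 CPM per coding kilobase, but its coding sequence is only 75 bases long, and per kilobase of its longest transcript it came to 7859. RpS29 had 7764 ± 400, RpLP2 had 6529 ± 232, RpS28b had 5930 ± 329 and RpLP1 had 5876 ± 312 CPM per coding kilobase. RpL39, RpL37-1, RpL36, RpS15, RpL10, RpS23 and RpS15Aa followed, between 4228 and 5095. The other 3 of the first 15 were not ribosomal. CG13159 had 5603 ± 1218 CPM per coding kilobase and was highest in replicate 2, with 1142, 1597 and 1093 CPM. HmgD, a DNA-bending chromatin protein, had 4978 ± 331, and Osi6 had 4227 ± 1559.

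Genes of the ribosome and of translation were among the highest, and varied little between libraries. Of 79 cytosolic ribosomal protein genes, 76 were detected, 1 was at 0 in every library, and the list summed to 10.6 ± 0.308% of the counts. Their median level was 2966 CPM per coding kilobase, against 12.99 for all genes with a coding length. Small as the differences were, 62 of the 74 ribosomal protein genes at a mean of 10 CPM or more were highest in replicate 2, against 38.7% of all 7330 genes at that level. A further 5 listed translation factor genes could not be matched and enter neither the sum nor the order. Identifiers without a name, FBgn0000556 among them, could include such genes. The 32 translation factor genes matched summed to 1.79 ± 0.0489% of the counts. Among these, eEF2, eIF4A and eEF1gamma were highest at 2005 ± 59.9, 1965 ± 37.2 and 1103 ± 45.6 CPM per coding kilobase. Of the 29 at a mean of 10 CPM or more, 19 were lowest in replicate 2, against 48.1% of all genes at that level. The proteins of the mitochondrial ribosome were all detected, 71 of 71, at a median of 59.1 CPM per coding kilobase, with mRpL30, mRpL12 and mRpS7 highest. Respiratory chain genes of the nucleus had 62 of 80 members detected and a median of 149.9 CPM per coding kilobase. ATPsynbeta, the catalytic subunit of ATP synthase, led at 926 ± 20.7, followed by the cytochrome oxidase subunits COX5A at 682 ± 22.3 and COX7C at 673 ± 31.3. Of the 60 at a mean of 10 CPM or more, 50 were highest in replicate 2, against 38.7% of all genes at that level.

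The mitochondrial genome itself was represented unevenly. Only 5 of its 28 entries were detected, and 20 were listed at 0, among them the small ribosomal RNA and mt:ND3. mt:CoII and mt:CoI, subunits of the same oxidase, had 2655 ± 263 and 2114 ± 198 CPM per coding kilobase, and mt:ND1, a subunit of complex I, had 109 ± 24.1. All 5 detected entries were highest in replicate 3 and lowest in replicate 2, against 35.5% and 48.1% of all genes at a mean of 10 CPM or more. These 0 values cannot be read as absent expression, since genes that every cell uses are among them.

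Histone entries showed the same kind of gap. Of 96 core histone and variant entries, 84 were at 0 in every library. The canonical histone genes are near-identical repeated copies, so their values are uncertain. The 5 detected entries were variants or genes outside the repeats. His3.3B, a replacement histone H3, had 4171 ± 60.6 CPM per coding kilobase, His2Av, the H2A variant, had 1837 ± 113, and His4r had 1792 ± 73.5. BigH1, the linker histone of the early embryo, had 136, 68.3 and 145 CPM in replicates 1, 2 and 3, and replicate 2 lay lowest.

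The tubulin and actin lists were each dominated by 1 of the genes measured, while 2 listed tubulin genes and 1 actin gene could not be matched and do not enter the sums. Of 8 tubulin genes 7 were detected, and alphaTub84B made 86.4% of their summed CPM. It had 2946 ± 24.2 CPM per coding kilobase, against 185 ± 17 for alphaTub84D and 73.9 ± 13.5 for betaTub97EF. Of 5 actin genes 3 were detected, and Act5C made 73.3% of their sum, at 3092 ± 94.9 CPM per coding kilobase, against 759 ± 42.7 for Act42A, the other cytoplasmic actin, and 364 ± 109 for Act87E, a muscle actin. The actin and alpha-tubulin genes are near-identical in sequence, so their division among copies is uncertain.

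Genes on the small chromosome 4 stood out for their level. Of its 89 genes, 80 were detected, with a median of 68.5 CPM per coding kilobase, and they took 2.23 ± 0.0630% of the counts. On the major arms the medians lay between 9.40 on 2L and 16.2 on X. None of 41 Y-linked entries was detected. Protein-coding genes took 91.7 ± 0.0257% of the counts, while none of 99 ribosomal RNA entries and none of 305 transfer RNA entries reached 1 CPM. Among 1116 noncoding RNA entries, 68 were detected. The highest was lncRNA:roX1, the RNA of the dosage compensation complex that coats the male X chromosome in flies, with 607, 656 and 622 CPM. The next were lncRNA:marge with 142, 162 and 179 CPM and lncRNA:CR30009 with 92.5, 118 and 108 CPM.

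Genes of the maternal list and of the Osiris, chitin and cuticle lists were detected side by side in all 3 libraries. These counts do not tell RNA stocked by the mother from RNA of the same gene made by the embryo. In the maternal list, which holds genes for the body axes, mRNA control and early nuclear divisions, 40 of 41 members were detected, at a median of 63.8 CPM per coding kilobase. CycB, a mitotic cyclin, was highest at 961 ± 254, with 1728, 1062 and 1792 CPM in replicates 1, 2 and 3. The RNA helicase gene me31B, whose product represses stored messages, had 620 ± 173 CPM per coding kilobase, from 989, 579 and 993 CPM. CycA, a second mitotic cyclin, had 571 ± 132, from 931, 617 and 975 CPM. In all 3 genes replicate 2 was the low library and replicates 1 and 3 nearly coincided. The same held for most of the list: of 37 members at a mean of 10 CPM or more, 32 were lowest in replicate 2, against 48.1% of all 7330 genes at that level. In these bulk samples, fewer cells or embryos of a kind and less RNA per cell cannot be told apart.

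Germline genes followed the same order. All 18 members of the germline and piRNA list were detected, and the list shares 4 genes with the maternal list. pgc, which holds transcription silent in the pole cells that found the germline, had 252 ± 104 CPM per coding kilobase, from 61.6, 28.9 and 70.9 CPM in replicates 1, 2 and 3. gcl, needed to form pole cells, had 114 ± 12.6, from 212, 170 and 200 CPM. osk, which assembles the germ plasm at the posterior pole, had 99.8 ± 35.9, from 204, 108 and 233 CPM. Of 17 members at a mean of 10 CPM or more, 16 were lowest in replicate 2, against 48.1% of all genes at that level. The cell cycle and replication list behaved alike, with all 34 members detected. All 33 at a mean of 10 CPM or more were lowest in replicate 2, against the same 48.1% of all genes. It shares CycA, CycB and stg with the maternal list. geminin, which stops DNA from being licensed again, had 198, 149 and 189 CPM.

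Genes of the cellular blastoderm were present at moderate and nearly even levels. In this list of segmentation, dorsoventral and cellularisation genes, 36 of 37 members were detected, at a median of 23.6 CPM per coding kilobase. sna, the repressor that defines the mesoderm, had 59.6 ± 1.5 CPM per coding kilobase, from 68.2, 71.7 and 69.3 CPM in replicates 1, 2 and 3. rho, the membrane protease that releases EGF receptor ligands, had 56.9 ± 6.45, from 54.1, 67.8 and 59.8 CPM. halo, which acts in lipid droplet transport during cellularisation, had 57.3 ± 14.3, from 23.9, 14.8 and 17.6 CPM. sna hardly differed between libraries, whereas halo was highest in replicate 1 and lowest in replicate 2. None of the 30 members at a mean of 10 CPM or more had a highest library 2-fold or more above its lowest, against 2.65% of all genes at that level.

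All segment polarity and Hox genes measured were detected. There were 11 segment polarity genes, with 1 more not matched to the table, led by arm, the fly beta-catenin, at 615 ± 10.5 CPM per coding kilobase, ci, the transcription factor of Hedgehog signalling, at 99.5 ± 0.893, and nkd, an inhibitor of Wingless signalling, at 92.1 ± 9.99. The level of ci was among the steadiest, with 421, 413 and 417 CPM. The 8 Hox genes fell into an order in which abd-A was highest at 114 ± 18.3 CPM per coding kilobase, then Antp at 92.9 ± 8.98, Ubx at 69.5 ± 8.35, Abd-B at 63.1 ± 8.38 and Scr at 44.5 ± 4.79. The head genes Dfd, lab and pb were lowest, at 14.9 ± 1.72, 10.7 ± 2.02 and 4.48 ± 0.940. The values of abd-A and Antp overlapped between libraries, as did those of Ubx and Abd-B, and the other neighbours in this order did not overlap. The order depends on the length used: per kilobase of the longest transcript, Scr, at 18.2 CPM, came above Abd-B, at 11.4. All 8 Hox genes were highest in replicate 2, against 38.7% of genes at a mean of 10 CPM or more; abd-A had 178, 238 and 187 CPM.

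The Osiris genes marked the late epidermis and trachea. Of 22 members 15 were detected, and the family summed to 7528, 12839 and 7474 CPM in replicates 1, 2 and 3. The highest sum was 1.72 times the lowest, and 1.01 times without replicate 2. Osi6 and Osi7 led, followed by Osi15, with 1044 ± 242 CPM per coding kilobase from 681, 820 and 510 CPM. Replicate 2 was the high library for 11 of the 12 members at a mean of 10 CPM or more, against 38.7% of all genes. The exception was Osi2, named after its values were seen, with 81.3, 56.5 and 34.6 CPM.

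Chitin and apical matrix genes were high in the same library. Here 24 of 28 members were detected, and of the 23 at a mean of 10 CPM or more, 17 were highest in replicate 2, against 38.7% of all genes, and 5 in replicate 1. verm, a chitin deacetylase of the tracheal tube lumen, had 553 ± 113 CPM per coding kilobase, from 898, 1119 and 746 CPM. Gasp and obst-A, which code for chitin-binding proteins, differed from it in order: Gasp had 741, 554 and 425 CPM and obst-A had 424, 348 and 235 CPM, with replicate 1 highest in both.

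Cuticle protein genes had the largest differences between the libraries of the stage and tissue lists. The list of 124 members summed to 4036 CPM in replicate 1, 2193 CPM in replicate 2 and 1356 CPM in replicate 3, a ratio of 2.98 between the highest and the lowest. That ratio was 1.59 without replicate 1 and 1.84 without replicate 3. Only 58 members were detected, 6 were at 0 in every library, and the median of all members was 2.05 CPM per coding kilobase. TwdlF, of the Tweedle family of cuticle proteins, was highest at 566 ± 199 CPM per coding kilobase, from 765, 677 and 362 CPM in replicates 1, 2 and 3. Cpr65Ea, a chitin-binding cuticle protein, had 365 ± 338, from 287, 70.0 and 59.2 CPM, and Cpr51A had 283 ± 213, from 228, 76.0 and 62.0 CPM. TwdlF was alike in replicates 1 and 2, while Cpr65Ea and Cpr51A were alike in replicates 2 and 3. Of the 31 members at a mean of 10 CPM or more, all 31 were highest in replicate 1, against 25.8% of all genes at that level, and all 31 were lowest in replicate 3, against 23.7%. Some members reached that mean only through replicate 1, such as Cpr92F with 23.3, 6.26 and 4.05 CPM. These counts therefore owe something to the filter, and they do not cover the rest of the 124 members.

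Tanning and pigment genes were lower than those of the ecdysone list. Of 26 tanning and pigment genes 21 were detected, at a median of 7.95 CPM per coding kilobase, led by yellow-c at 68.7 ± 11.9, yellow-e3 at 40.7 ± 2.67 and Pu, the GTP cyclohydrolase of pteridine synthesis, at 34.2 ± 6.09. Of the 14 at a mean of 10 CPM or more, 12 were highest in replicate 2, against 38.7% of all genes. In the ecdysone list 18 of 19 members were detected, at a median of 34.3 CPM per coding kilobase. ImpL1 had 503 ± 125 CPM per coding kilobase, from 423, 697 and 536 CPM. ImpL2, which binds insulin-like peptides, had 313 ± 30.2, and Hr3, a nuclear receptor of the ecdysone cascade, had 134 ± 29.3, from 287, 435 and 329 CPM. ImpL1 and Hr3 were highest in replicate 2 and lowest in replicate 1.

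**Figure D2:**
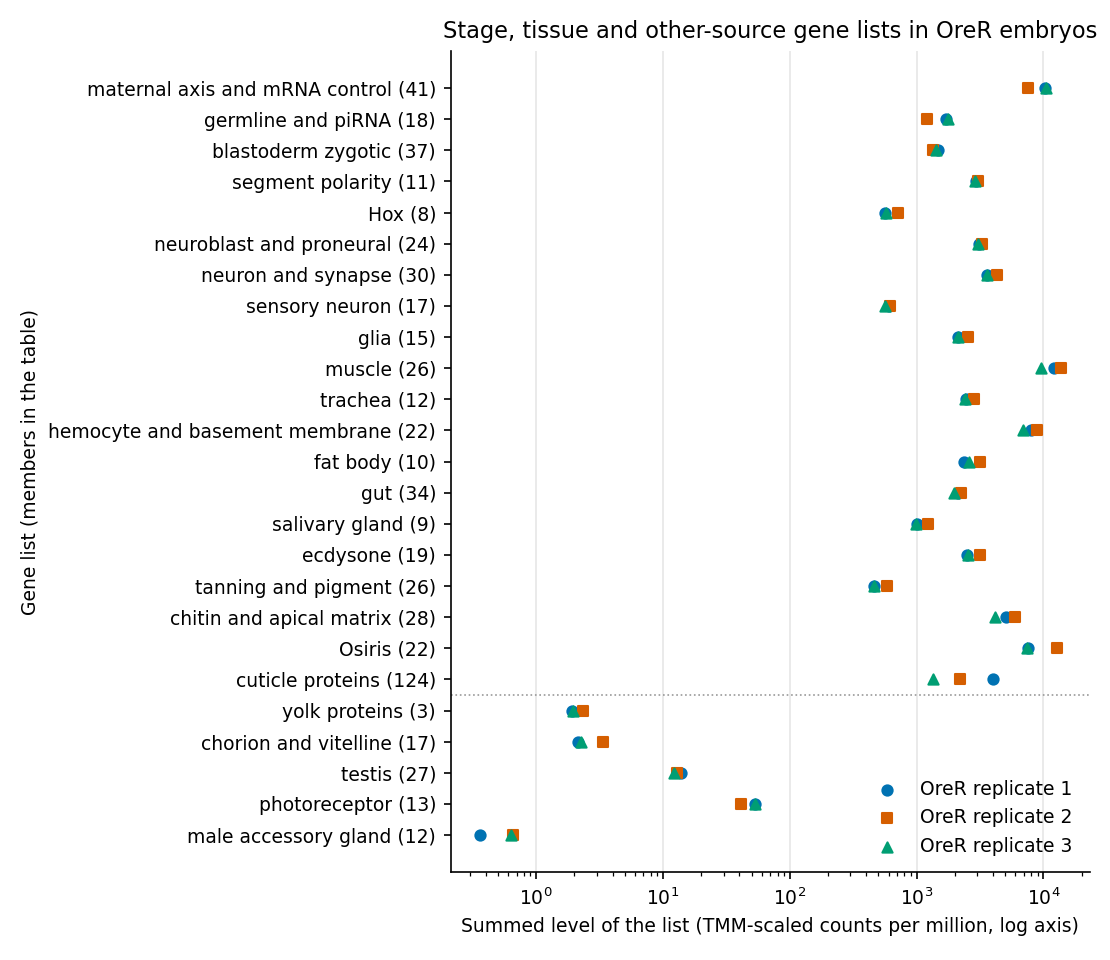
Summed level of each stage, tissue and other-source gene list in each OreR library; the x axis is TMM-scaled CPM on a log axis, points are the 3 libraries, and the number of members in the table is in brackets. The cuticle list spreads most among the lists above the dotted line, from 1356 CPM in replicate 3 to 4036 CPM in replicate 1. The other-source lists below the line each sum to at most 53.0 CPM.

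Marker lists of muscle, neurons, glia, trachea and salivary gland were detected in full, and those of fat body and gut in part. Muscle had the largest summed CPM of the tissue lists, with 26 of 26 members detected and a median of 155 CPM per coding kilobase. The myosin light chains Mlc2 and Mlc1 had 2372 ± 480 and 1240 ± 221 CPM per coding kilobase, from 1632, 1870 and 1237 CPM and from 596, 668 and 465 CPM in replicates 1, 2 and 3. up, which codes for troponin T, had 725 ± 142, from 890, 1019 and 682 CPM. Replicate 3 was the lowest for 18 of the 26 members, against 23.7% of all genes at a mean of 10 CPM or more, and replicate 2 the highest for 22, against 38.7%.

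Neural lists were detected almost in full. All 24 neuroblast and proneural genes were detected, led by numb, which is passed to only one daughter of a dividing neural precursor, at 127 ± 0.559 CPM per coding kilobase, the Notch ligand Delta at 112 ± 16, and sli, the midline repellent, at 111 ± 11.5. The level of numb was nearly the same in every library, with 210, 212 and 212 CPM. All 30 neuron and synapse genes were detected. Csp, a chaperone of synaptic vesicles, had 317 ± 15.2 CPM per coding kilobase, and the neuronal RNA-binding protein genes elav and fne had 284 ± 35.9 and 257 ± 35.8. elav had 357, 460 and 418 CPM, and 25 of the 29 neuron members at a mean of 10 CPM or more were highest in replicate 2, against 38.7% of all genes. Of 17 sensory neuron genes 16 were detected, at a median of 5.35 CPM per coding kilobase, with rpk, cpo and sca highest at 60.5 ± 16.7, 52 ± 8.41 and 31.2 ± 7.57. All 15 glial genes were detected, led by nrv2, cora and Nrx-IV at 421 ± 43.1, 125 ± 22 and 99.5 ± 5.4. These 3 are septate junction components that other epithelia also use, so their level is not specific to glia.

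The trachea and salivary gland lists were detected in full, and the list of hemocyte and basement membrane genes in part. All 12 tracheal genes matched were detected, led by rib, sinu and vvl at 321 ± 15.1, 265 ± 28.3 and 114.8 ± 19.6 CPM per coding kilobase. Of these 12, 11 were highest in replicate 2, against 38.7% of all genes at a mean of 10 CPM or more. The list has 2 more genes that could not be matched. In whole embryos these levels cannot be assigned to the trachea apart from other tissues. All 9 salivary gland genes were detected, with ps, CrebA and Papss at 183 ± 23.2, 121 ± 16.1 and 108 ± 20.7. CrebA, the activator of secretory pathway genes, had 164, 214 and 183 CPM. Of 22 hemocyte and basement membrane genes 18 were detected and 1 was at 0 in every library. The matrix protein genes SPARC, LanB1 and LanA led at 224 ± 45.8, 199 ± 21.2 and 190 ± 21.0. Because the list joins hemocyte and matrix genes, these levels do not show hemocytes apart from other sources of matrix. LanA, the laminin alpha chain, had 1969, 2386 and 1994 CPM.

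Fat body and gut were represented in part. In the fat body list 4 of 10 members were detected and apolpp alone made 90.9% of the sum, with 245 ± 39.5 CPM per coding kilobase. Apoltp, a lipid transfer particle component, followed at 18.6 ± 1.46, and Obp99b at 4.05 ± 0.341. Lsp2, a storage protein of the larval fat body named after its values were seen, was near 0, with 0.275, 0.575 and 0.485 CPM. In the gut list 15 of 34 members were detected. Vha16-1 and Vha55, subunits of the proton pump that many tissues use, led at 2552 ± 150 and 338 ± 25.9 CPM per coding kilobase, followed by fkh, the hindgut and salivary gland determinant, at 69.5 ± 6.32. The rest are mostly digestive enzyme genes, with GATAe, byn and Npc1b also among them. Only 8 of the 34 members were at a mean of 10 CPM or more, and the median of the list was 0.685 CPM per coding kilobase.

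Markers of yolk, eggshell, male accessory gland, testis and photoreceptors were mostly near 0, with norpA and mia as exceptions. The 3 yolk protein genes, made by the adult female, summed to 1.93, 2.33 and 1.94 CPM, with Yp3 the highest at 1.06 ± 0.118 CPM per coding kilobase. None of 17 chorion and vitelline membrane genes and none of 12 male accessory gland genes was detected; 5 and 4 of them were at 0 in every library. Of 27 testis genes 12 were at 0 and only mia was detected, with 11.9, 9.36 and 10.2 CPM. Of 13 photoreceptor genes 3 were detected, and the phospholipase gene norpA, with 45.1, 31.9 and 46.1 CPM, made 83.6% of the sum. None of these lists summed to more than 53.0 CPM in any library.

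The sex determination list had 16 of 17 members detected, with snf, fl(2)d and tra2, all of them splicing regulators, highest at 136 ± 13.1, 128 ± 0.910 and 68.4 ± 5.75 CPM per coding kilobase. All 40 splicing factor genes were detected, at a median of 142 CPM per coding kilobase. The hnRNP genes sqd, Hrb27C and Hrb98DE led at 1604 ± 135, 1490 ± 98.7 and 750 ± 6.65. Hrb98DE had 828, 821 and 813 CPM, while sqd was lowest in replicate 2, with 1695, 1500 and 1771 CPM.

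Replicates agreed closely for most genes. Over 7330 genes at a mean of 10 CPM or more, the median coefficient of variation was 9.14%, with quartiles of 5.06% and 16%. Over the 9285 genes at a mean of 1 CPM or more the median was 10.9%, and without replicate 2 the median at that cut was 4.35%. The coefficient of variation fell with level. Its median was 19.7% for genes between 1 and 10 CPM, 10.5% between 10 and 100, 7.39% between 100 and 1000 and 5.24% above 1000. The expected counting error was 8.59%, 2.67%, 1.23% and 0.424% in the same bins, so the spread between libraries exceeded it at every level. The common biological coefficient of variation estimated by edgeR was 17% over 9285 genes. Ribosomal protein genes, at a median of 4.67%, and translation factors, at 4.21%, were among the steadiest lists, and cuticle proteins, at 70.7%, the most variable.

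**Figure D3:**
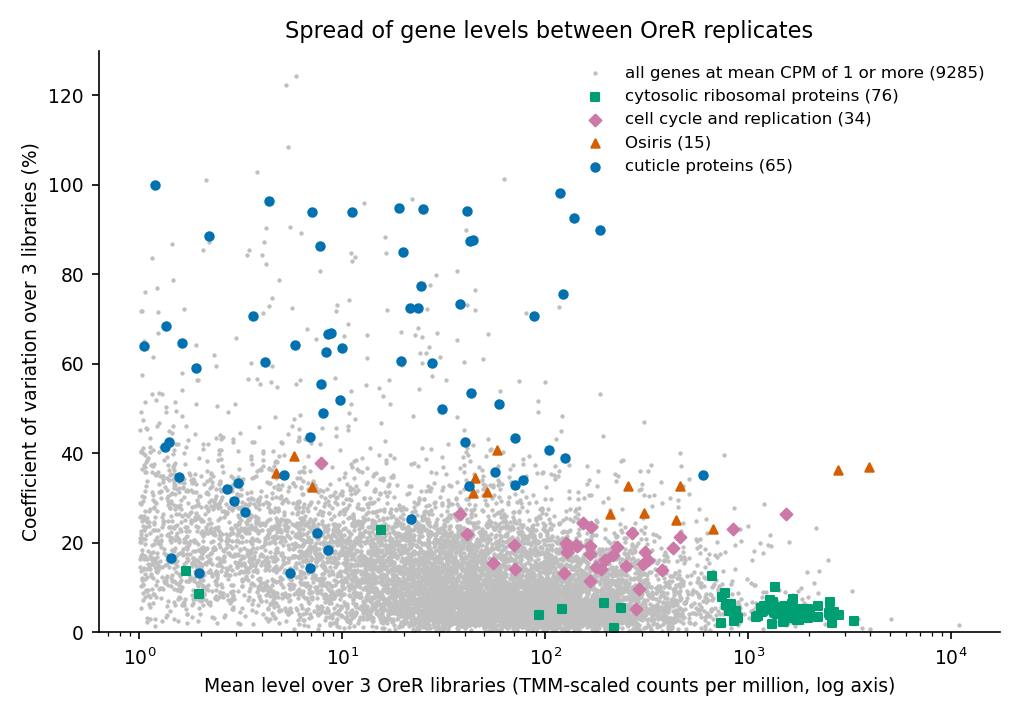
Coefficient of variation over the 3 OreR libraries (y axis, %) against the mean level (x axis, TMM-scaled CPM, log axis), each point a gene at a mean of 1 CPM or more; 4 gene lists are coloured. Ribosomal protein genes lie low at a median of 4.67%, Osiris genes lie near 32.0%, and cuticle protein genes reach far above both.

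The libraries did not differ evenly from each other. Replicates 1 and 3 were the most alike, with a median absolute log2 ratio of 0.07 per gene, against 0.20 for replicates 1 and 2 and 0.21 for replicates 2 and 3. Yet 142 genes were 2-fold or more apart between replicates 1 and 3, against 92 between 1 and 2 and 54 between 2 and 3. Across the 7330 genes, log2 CPM correlated at Pearson's r = 0.9857 between replicates 1 and 3, 0.9771 between 1 and 2, and 0.9773 between 2 and 3. These are correlations over genes, which share libraries and are not independent replicates.

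In all, 194 genes had a highest library 2-fold or more above the lowest (2.65% of 7330). They fell mainly into 2 patterns. In the larger, 134 genes were highest in replicate 1 and lowest in replicate 3. Of these, 28 belong to the cuticle list, which has 31 members among the 7330 genes. In the other, 43 genes were highest in replicate 3 and lowest in replicate 2, and 9 of these belong to the maternal or germline lists, which have 50 members among the 7330 genes: pgc, gnu, osk, nanos, swa, otu, alphaTub67C, exu and krimp. alphaTub67C, a maternal alpha-tubulin, had 94.2, 47.8 and 98.2 CPM in replicates 1, 2 and 3. Without replicate 1 the count of genes 2-fold apart was 59, without replicate 2 it was 148, and without replicate 3 it was 98.

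**Figure D4:**
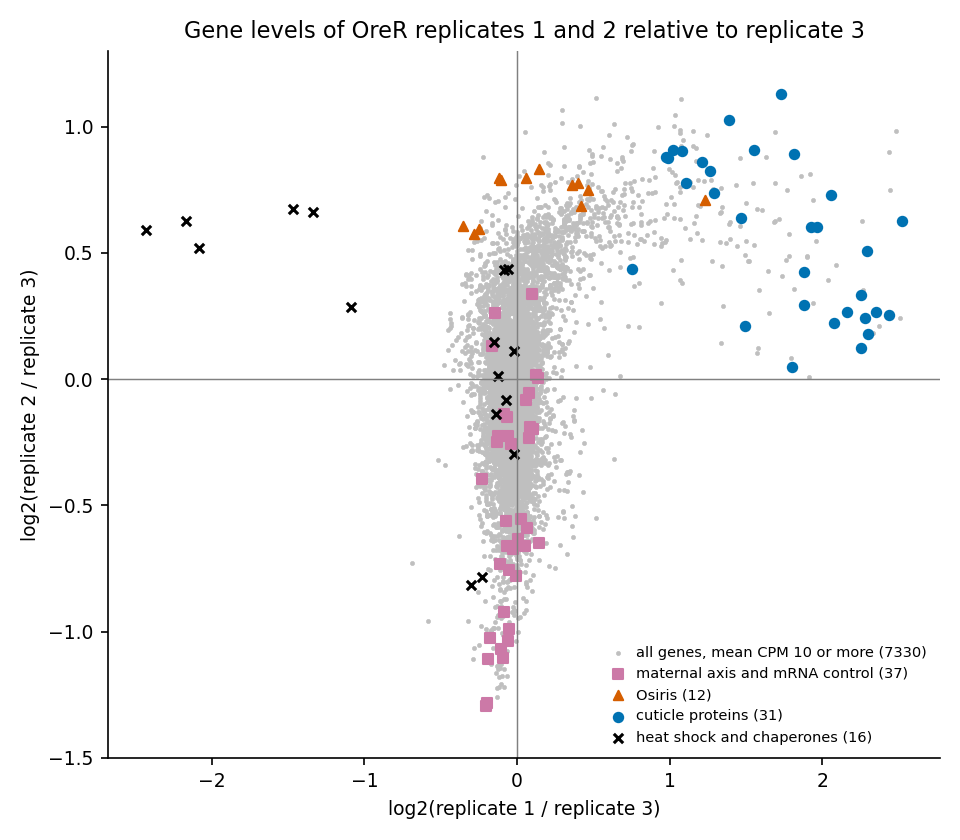
Log2 ratio of replicate 2 to replicate 3 (y axis) against log2 ratio of replicate 1 to replicate 3 (x axis), each point a gene at a mean of 10 CPM or more; 4 gene lists are coloured. The 31 cuticle genes lie to the right, the 12 Osiris genes above the horizontal line, most maternal genes at the bottom, and 6 heat shock genes at the left.

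The 12 most variable genes at a mean of 10 CPM or more were 3 heat shock genes, 3 genes of the cuticle list, obst-E and 5 genes known only by CG numbers. Hsp70Bc had 2.23, 18.1 and 12 CPM in replicates 1, 2 and 3, a ratio of 8.11 between the highest and the lowest. Hsp70Bb had 4.02, 27.8 and 18.0 CPM, and Hsp68 had 6.22, 37.8 and 26.4 CPM. All 3 code for inducible chaperones of the Hsp70 kind and were low in replicate 1 only. The Hsp70 genes are near-identical copies among which reads may have been divided, which leaves the level of each copy open to doubt. In the heat shock list, of 16 genes at a mean of 10 CPM or more, 12 were lowest in replicate 1, against 28.2% of all genes at that level. The other 4 were lowest in replicate 2, among them 2 heat shock genes named after their values were seen. Hsp26 had 213, 149 and 262 CPM and Hsp27 had 219, 149 and 256 CPM, so not all heat shock genes were low in replicate 1. The chaperones that are always made did not take part to that extent: Hsc70-3, of the endoplasmic reticulum, had 1384, 1522 and 1512 CPM, Hsp83, the fly Hsp90, had 1321, 1324 and 1456 CPM, and the DnaJ-type gene Droj2 had 500, 412 and 506 CPM.

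The 9 others of the 12 most variable genes were highest in replicate 1. TwdlM, a Tweedle cuticle protein gene, had 253, 55.9 and 46.9 CPM, and CG31626 had 135, 28.1 and 23.8 CPM. The chitin-binding protein gene obst-E had 46.6, 10.4 and 8.99 CPM, Cpr62Bc had 40, 9.43 and 7.85 CPM, and Cpr92F had 23.3, 6.26 and 4.05 CPM. CG13059, CG13041, CG13063 and CG15212 had ratios between 5.04 and 5.6. In all 9 genes replicate 1 stood well above both other libraries, and replicate 3 was lowest.

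Junction counts show which exon joins were used. A main junction was defined for each gene as the annotated junction of largest summed count, and 6779 genes had one with 30 counts or more in every library. Of these, 5730 had 2 or more annotated junctions, with a median of 5. Among their 31735 other junctions, 14106 had 50 to under 90% of the count of the main junction and 3155 had 90% or more. At the other end, 7801 (24.6%) had under 10%, including 1431 that were never seen, and 2628 genes had such a seldom used junction. The share of each junction in its gene's count was steady: its median coefficient of variation was 8.08% over 27543 junctions with 30 counts or more in every library. The expected counting error was 7.70%, but a median of coefficients of variation over only 3 libraries tends to fall below the true spread. The 2 values therefore do not tell how much of this variation is counting error.

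The main junction was the same in every library in 3774 of 5730 genes (65.9%). This share followed how close the second junction came. Where it had under 90% of the main count, 3067 of 3395 genes kept their main junction (90.3%), and where it had under 50%, all 514 genes did. Where it had 90% or more, 707 of 2335 genes did (30.3%). Junctions that lie in the same transcript have similar counts, so a change of the main junction between 2 close junctions does not show a change of isoform.

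Gene groups differed in how many of their junctions were seldom used. In muscle genes 168 of 348 junctions other than the main one had under 10% of it (48.3%), and in chitin and apical matrix genes 100 of 211 did (47.4%). Splicing factor genes had 144 of 304 (47.4%), neuron and synapse genes 167 of 430 (38.8%) and cytosolic ribosomal protein genes 54 of 140 (38.6%). Cell cycle genes, with 12 of 104 (11.5%), and mitochondrial ribosomal protein genes, with 5 of 51 (9.80%), lay below the share of all genes. Genes with many annotated junctions weigh most in these shares: the median number per gene was 11 in the muscle list, 14 in the neuron list and 2 for mitochondrial ribosomal proteins.

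**Figure D5:**
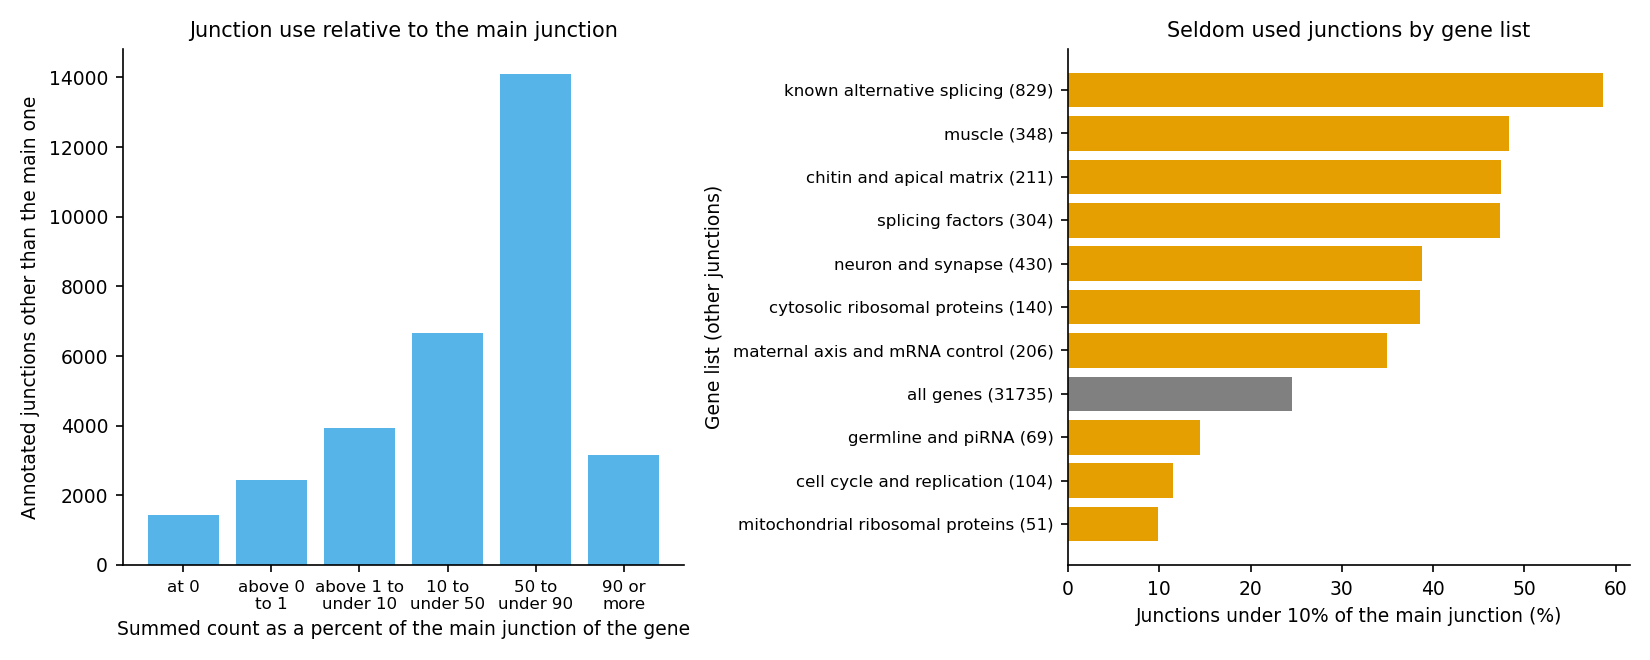
Left, number of annotated junctions other than the main one (y axis) by their summed count as a percent of the main junction of the gene (x axis), over 5730 genes; right, percent of such junctions under 10% of the main one (x axis) in 10 gene lists and in all genes, with the number of junctions in brackets. The commonest class is 50 to under 90%, and the muscle list, at 48.3%, lies above all genes, at 24.6%.

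Genes known for alternative splicing were followed one by one. A further 12 listed genes could not be matched to the table. Of the 32 matched, 28 had 2 or more junctions and a main junction of 30 counts or more in every library, and 14 of them had the same main junction in all 3. In these 28 genes 486 of 829 other junctions had under 10% of the main one (58.6%), and 72 were at 0. Dscam1, the receptor whose arrays of mutually exclusive exons give many isoforms, had 205 annotated junctions, of which 186 were under 10% and 17 at 0. Its main junction J118 had 265, 300 and 232 counts in replicates 1, 2 and 3, and its rival J119 had 251, 306 and 229 counts. These 2 junctions were used alike.

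Some muscle genes of this list had junctions of nearly equal use. In Tm1, one of the tropomyosin genes, J064 had 3601, 4417 and 2731 counts and J057 had 3518, 4188 and 2896. In Tm2, the other tropomyosin gene, J015 had 2597, 3023 and 1796 counts and J017 had 2548, 3104 and 1736, while J012 had only 16, 30 and 11. In Mef2, the muscle transcription factor, J034 had 558, 740 and 631 counts and J028 had 561, 741 and 623. In bt, a giant protein of the sarcomere, J097 had 700, 1011 and 621 counts, J095 had 654, 1031 and 547, and 35 of its 50 junctions were under 10%. In sls, another giant sarcomere protein, the second junction stayed at 75.1% of the main one, which was the same in every library.

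Several neural genes of the list also had a close second junction. fne had 507, 701 and 509 counts at J032 and 447, 705 and 552 at J031. In Fas2, a cell adhesion molecule of axons, J018 had 662, 740 and 651 counts, J019 had 643, 743 and 577 and J017 had 551, 756 and 576. Cadps, which acts in dense-core vesicle release, had 236, 353 and 293 counts at J057 and 222, 368 and 283 at J046. slo, a calcium-activated potassium channel, was covered thinly, with 48, 62 and 45 counts at J084 and 56, 63 and 35 at J086. Dscam4 was thin too, with 62, 55 and 57 counts at J067 and 51, 60 and 59 at J069, and in Khc-73, a kinesin gene, J023 had 249, 294 and 219 counts and J025 had 231, 260 and 235. At such counts the order of the junctions cannot be told. cac, a calcium channel, was as thin, with 51, 63 and 36 counts at J047 and 28, 48 and 34 at J049. J047 led in every library, but by little in replicate 3, and J049 had 73.3% of its summed count. In Ptp10D, a receptor phosphatase, the second junction had 86.9% of the main one. There J035 had 231, 255 and 184 counts and J037 had 153, 243 and 186, so that the order was reversed in replicate 3.

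RNA-binding protein genes are themselves on this list. sqd had 3451, 2923 and 3627 counts at J022 and 3337, 3037 and 3487 at J020, so that the order was reversed in replicate 2. heph, the fly polypyrimidine tract-binding protein, had 628, 571 and 615 counts at J046 and 595, 551 and 647 at J045. Rbfox1 had 351, 419 and 328 counts at J035 and 337, 418 and 328 at J036. tra2, a regulator of sex-specific splicing, had 303, 275 and 317 counts at J013 and 296, 274 and 293 at J016.

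In tra and mod(mdg4), picked here with Mhc after their values were seen, the junctions given kept their order in every library. tra, which is spliced differently in the sexes, had 122, 127 and 130 counts at J005, 70, 69 and 64 at J006, and 28, 35 and 40 at J007. mod(mdg4), a chromatin gene with many alternative last exons, had 3424, 3075 and 3360 counts at J061 and 2494, 2301 and 2550 at J060, and 27 of its 30 junctions were under 10% of the main one. Mhc, the muscle myosin heavy chain, had 3053, 4437 and 2130 counts at J081 2850, 3518 and 2042 at J075, and 2786, 3382 and 2081 at J077. J081 led in every library, but by little over J077 in replicate 3, and the order of J075 and J077 was reversed there. Of its 46 junctions 26 were under 10% of the main one. The other genes of the list that qualified were Ubx, sls, up, ps, Act5C, Ptp10D, cac, hfp, ttk and Hrb27C.

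Among other genes at a mean of 30 CPM or more, 8 were picked because their main junction differed between libraries. Of all such genes, their second junction came closest to the first, and the pairs had equal sums over the 3 libraries. This was so in svp, Esp, CG3588, MFS18, pod1, Atg5, Rim2 and CG13126. In svp, a nuclear receptor, J011 had 127, 174 and 120 counts and J013 had 111, 189 and 121. In Atg5, which acts in autophagy, J007 had 181, 172 and 203 counts and J008 had 187, 184 and 185. The leading junction changed between libraries by the rule of choice, within counts that overlapped, so this change is not a result about these genes.

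Few junctions changed their share of the gene between libraries. Only 67 of 27543 junctions (0.243%), in 59 genes, had shares 2-fold or more apart. The largest ratio was 3.10, for J019 of the lipoprotein receptor gene LpR2, with shares of 0.895%, 2.17% and 0.701% of the gene count in replicates 1, 2 and 3. In twin, a deadenylase that shortens poly(A) tails, J024 had shares of 1.22%, 0.661% and 2.02%. In Osi2, J008 had shares of 8.50%, 2.88% and 3.22%, highest in replicate 1. In zld, the activator of the first zygotic genes, J008 had shares of 0.383%, 0.767% and 0.352%. These 4 were named after their values were seen, and none of their counts is above 251 in a library.

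Unannotated junctions were rare. The 418 in the table lay in 306 genes, took 0.118% of all junction counts, and 80 of them had 30 counts or more in every library. The most used was N008 of CG30423, with 689, 752 and 745 counts in replicates 1, 2 and 3, which is 21.8 ± 1.42% of the gene count and 59.5% of the main annotated junction. In Fas3, a homophilic adhesion protein, N025 had 467, 819 and 555 counts, highest in replicate 2, as 2.26 ± 0.173% of the gene count. In dco, a casein kinase, N012 had 601, 497 and 602 counts and a share of 3.33 ± 0.270%. In bt, N098 had 354, 544 and 275 counts and a share of 1.24 ± 0.0663%. In CtBP, a corepressor, N023 had 377, 385 and 371 counts and a share of 2.31 ± 0.0601%. Each of the 5 was seen in every library at a like share of its gene.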

How the data were processed

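The authors deposited raw counts of exonic bins and splice junctions and, in paired columns, counts of the gene of each feature, per the file headers. GSNAP and SAMtools are named as tools, and BDGP5 and mm10 as builds, per the submitters' processing notes; the sources used here do not name the counter, its treatment of strand or its annotation, so reads of overlapping or antisense genes cannot be told apart. The deposited table also held a normalized signal, not used here. The paired gene count leaves out the feature itself, judged from the values, so a gene's count is the smallest sum of both over its features; the sum differed between features in 35 genes. Names, chromosomes and the longest coding length came from the Ensembl release 115 annotation of BDGP6, not the deposited build, and replaced the planned protein table; no coordinates are given. Scaling and dispersion used edgeR 4.0.16 (TMM, estimateDisp, no term but the mean) in R 4.3.3, tested on simulated data. SDs are over 3 biological replicates, and nothing says which embryos a library pooled. No test was made, as there is 1 group. Genes named are the 20 largest by CPM, the 15 largest per coding kilobase, the top 3 of each list, the 12 most variable, and genes by the junction rules given; others are said to be chosen later. The libraries, lists and rules were chosen with earlier results of these data known. A further 6 newer symbols were matched by hand. The gene caper was not analysed here.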

Additional observations from a re-analysis of the deposited data

How the results depend on the processing

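Of 48 alternatives to the main values, other than leaving out a library, 37 left the value within a set allowance. For shares of counts the allowance was the SD between replicates, and for numbers of genes or junctions it was 1.5 times. For all other values it was the SD of the results from leaving out 1 library in turn. That SD is wide for the median variation of genes, whose leave-one-out values ran from 4.35 to 12%. The measure of level moved the most: per kilobase of coding length, 232 genes held 50% of the total, the 10 largest held 9.70% and ribosomal proteins 29.0%, and per kilobase of the longest transcript 370 genes, 7.24% and 26.7%, against 734 genes, 4.34% and 10.6% of plain counts. With genes at a mean of 10 CPM or more the edgeR variation was 15.3%, without a filter the median variation of genes was 15.8%, and with genes at a mean of 1 CPM or more 452 were 2-fold apart. A main junction minimum of 10 counts gave the same main junction in 63.3% of genes and one of 100 counts in 70.6%. Leaving out 1 library gave 9113 to 9176 detected genes, 722.5 to 750.5 genes holding 50%, 4.27 to 4.4% in the 10 largest, 10.5 to 10.8% in ribosomal proteins, an edgeR variation of 15 to 17.7%, a median variation of 4.35 to 12% (4.35% without replicate 2), 59 to 148 genes 2-fold apart, and the same main junction in 75.4 to 77.0% of genes, since 2 libraries agree more often than 3. The ratio of the highest to the lowest library was 1.59 to 2.98 for cuticle genes, lowest without replicate 1, 1.01 to 1.71 for Osiris genes and 1.02 to 1.40 for maternal genes, both lowest without replicate 2. Of the 20 stage and tissue lists, 16 had a lower and 2 a higher share per coding kilobase by more than the SD between libraries. The longest-transcript measure and the list ratios were chosen after seeing the data. Leaving out identifiers that join several genes was not run, as there are none. No paired analysis was possible because the values come from 1 group with no contrast. Depth limits low genes: 3 counts in a library are 0.0811 CPM on average. That floor covers counting error only, while SDs are over the 3 libraries.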

Other observations

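Some genes outside the lists moved in the same patterns between the OreR libraries; they are named after their values were seen and no explanation was tested. Among the 134 genes highest in replicate 1 and lowest in replicate 3, all 4 Vajk genes measured at a mean of 10 CPM or more appear, a family of cuticle-associated proteins, with Vajk4 the highest of them at 116 mean CPM. CG numbers, which mark genes without a given name, were 79 of the 194 genes with a 2-fold difference, against 2081 of 7330 genes at that level. Among the 43 genes highest in replicate 3 and lowest in replicate 2, dhd, a thioredoxin of the egg, averaged 466 CPM with a ratio of 2.20 between the highest and the lowest library. Pxt, a peroxidase of the ovary, averaged 241 CPM with a ratio of 2.27, and mtrm, a regulator of meiosis, averaged 83.2 CPM with a ratio of 2.33. Others of this group are Mos, fs(1)N, fs(1)Ya, fs(1)M3, zpg, armi and bru1, genes known from the female germline. These genes were low in replicate 2, the library in which most Osiris, Hox and neuron genes were high.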
